A study of Mus musculus with 8 samples.

Results

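The enzymes that remove reactive oxygen species and maintain glutathione were followed across age in common myeloid progenitors (CMPs), the bone marrow cells that give rise to granulocytes, monocytes, red cells and megakaryocytes. The list held 40 genes, namely the superoxide dismutases and catalase, glutathione peroxidases, peroxiredoxins, the thioredoxin system, enzymes of glutathione synthesis and recycling, glutathione transferases, the Nrf2 axis, the metallothioneins and Nnt. They were found by the gene name that the array design gives each probe, which matched 59 of 55681 probes and 40 of 34797 gene names. Each of the 8 arrays measured the RNA of CMPs freshly sorted as Lin-, cKit+, Sca-1-, CD34+ and FcγRlow cells from untreated wild-type C57BL/6J mice. The 4 young arrays (replicates 3 to 6) came from mice labelled 2 to 3 months old and the 4 old arrays (replicates 2 to 5) from mice labelled 22 to 24 months old. The series text and the study's methods give somewhat different age ranges, and the sex of the mouse behind each array was not given in the sources used here. All mice of both ages share the C57BL/6J background, which carries a known deletion within Nnt. The study's methods describe cells of individual mice as biological replicates, and name 3 mice per age where 4 arrays per age were analysed here, so some arrays may share a mouse and p-values measure the spread between these arrays.

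Superoxide leaking from the respiratory chain is converted by superoxide dismutases to hydrogen peroxide, which catalase, glutathione peroxidases and peroxiredoxins then reduce to water. Peroxiredoxins are recharged by thioredoxin and thioredoxin reductase, and glutathione peroxidases by glutathione, which Gsr returns to its reduced form with NADPH. Glutathione transferases couple glutathione to reactive compounds, among them the aldehydes and lipid peroxides that form DNA adducts, and the transcription factor Nrf2 (encoded by Nfe2l2), held in check by Keap1, drives many of these genes through the antioxidant response element.

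Because this element is what many of the genes are known to share, its core TGACNNNGC was looked for on both strands of the 250 bases before each transcription start in RefSeq promoters of the build GRCm38.p6. Promoters were at hand for 33 of the 40 genes. The core lay in 8 of these 33 genes (24.2%), in 1 promoter each, against 3112 of 27025 genes overall (11.5%). A match is a description of these letters and not a bound site. The pair of sequences shown in full are the upstream 250 bases of Gstm5 (chr3:107895604-107895853, plus strand) and Mgst1 (chr6:138140277-138140526, plus strand), since these were the holders of the core whose young and old arrays did not overlap, in opposite directions. Each sequence is written 5′ to 3′ toward the start site, with the core in capitals.
Gstm5: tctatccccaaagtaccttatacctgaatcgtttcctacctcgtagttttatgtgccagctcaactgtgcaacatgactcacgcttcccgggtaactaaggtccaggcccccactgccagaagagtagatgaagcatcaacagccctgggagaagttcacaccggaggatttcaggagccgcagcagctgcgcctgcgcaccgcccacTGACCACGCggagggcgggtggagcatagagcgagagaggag
Mgst1: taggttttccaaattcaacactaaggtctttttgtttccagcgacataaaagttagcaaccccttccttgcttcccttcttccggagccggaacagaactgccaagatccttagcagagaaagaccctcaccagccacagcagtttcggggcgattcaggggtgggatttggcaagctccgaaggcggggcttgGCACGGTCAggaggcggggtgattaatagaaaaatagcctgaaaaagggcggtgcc
The core of the other holders is shown with its 29-base surroundings for Gclm (chr3:122245413-122245441), Prdx1 (chr4:116685456-116685484), Txnrd1 (chr10:82859104-82859132), Nfe2l2 (chr2:75704885-75704913, minus strand), Sod1 (chr16:90220696-90220724) and Mt2 (chr8:94172529-94172557). They stand 5′ to 3′ on the gene's strand, which is the plus strand where none is given, and a core read as GC first lies on the opposite strand.
Gclm: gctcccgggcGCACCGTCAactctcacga
Prdx1: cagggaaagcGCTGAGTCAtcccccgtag
Txnrd1: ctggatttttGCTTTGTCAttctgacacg
Nfe2l2: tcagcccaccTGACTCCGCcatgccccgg
Sod1: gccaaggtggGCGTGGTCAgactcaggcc
Mt2: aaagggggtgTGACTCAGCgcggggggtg

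Most of the antioxidant genes were detected in the CMPs of both ages and differed little between them. Of the 40 genes, 39 were tested, and the brightest probe of 38 of these was well above background on every array. A test required 4 or more arrays on which the probe cleared the background, whatever the age, and Sod3, the extracellular superoxide dismutase, did so on 0 of 8. Of the 59 probes, 57 were tested, the other untested probe being a dim probe of Nnt, and 54 were well above background on all 8 arrays. Each gene is represented by its brightest probe, and levels are given on a log2 scale on which the 75th percentile of the array is 0, so that levels of different probes are not set against each other. Values on every array are given in the order of young replicates 3, 4, 5 and 6 and old replicates 2, 3, 4 and 5. In the limma fit over 33472 probes, a probe was called if its adjusted p was under 0.05 and its change at least 1.5-fold. No member probe was called, the lowest adjusted p being 0.119, while 64 probes were called over the whole array (0.191%). At an unadjusted limma p under 0.05, 2 member probes were higher in old CMPs, with a background of 3.61% of probes, and 4 were lower, with a background of 2.73%. These are 3.51% and 7.02% of the 57 probes, and the 4 lower probes belong to 3 genes.

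By brightest probe, 25 members had higher and 14 had lower mean levels with age. The median of the 39 log2 fold changes was 0.07, against -0.01 over the 23145 genes tested, and turned to -0.0016 with quantile normalization and -0.0144 with array weights. The log2 fold change was under 0.3 in size for 29 of the 39 members, and 3 of them moved by at least 1.5-fold (7.69%, against 8.66% of all genes). For 16 members the 95% confidence interval of the limma fit, not adjusted for the number of genes, lay wholly within a 1.5-fold change in either direction. These were Sod1, Sod2, Gpx1, Gpx4, Prdx1, Prdx2, Prdx4, Prdx6, Txn2, Txnrd1, Txnrd2, Srxn1, Gclc, Gsto1, Gstt2 and Mgst3. For the other 23 the interval reached past 1.5-fold, so a change of that size was not excluded by these arrays, and for 5 members it left out 0.

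**Figure D1:**
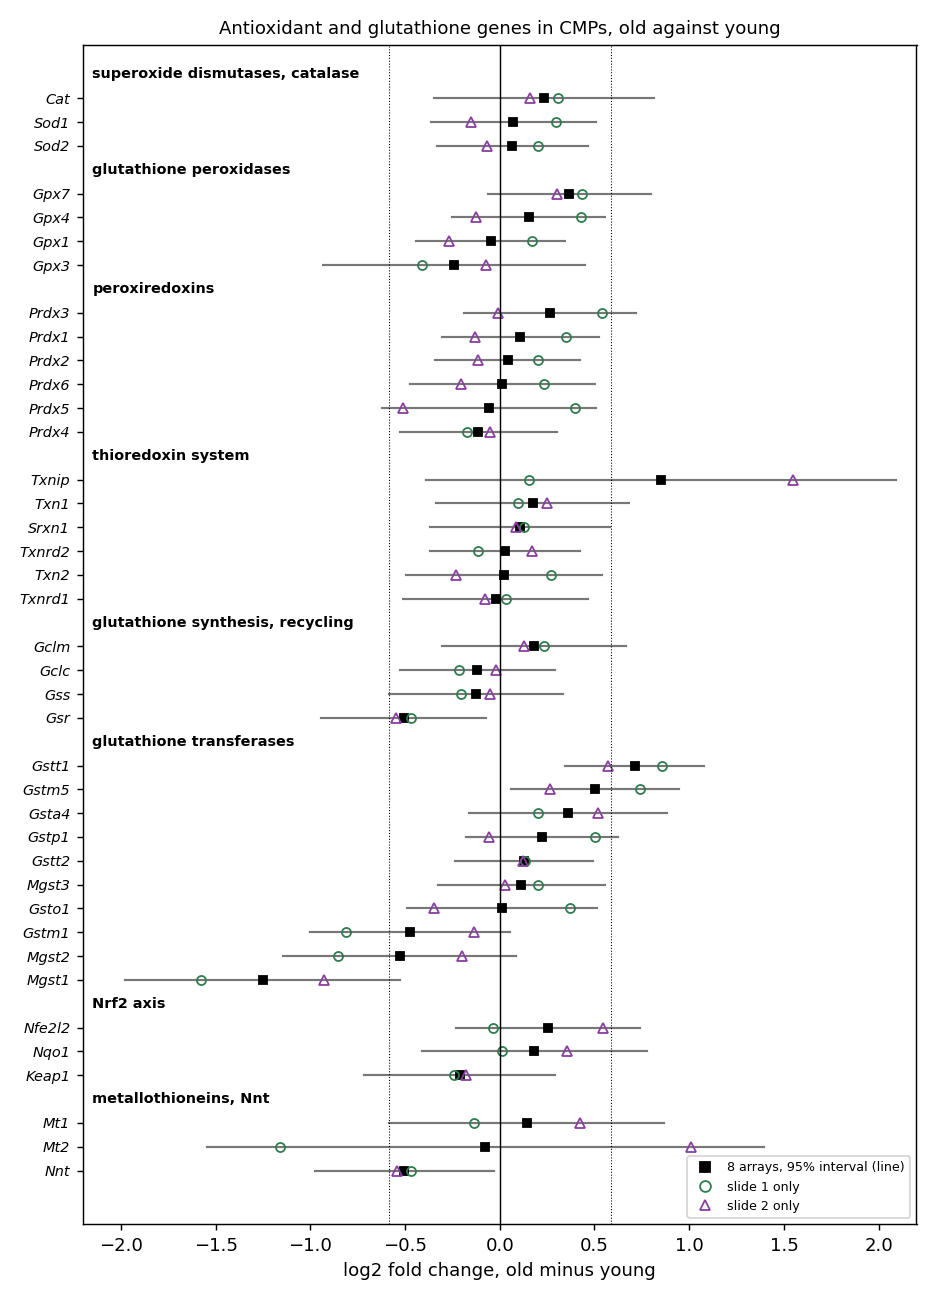
Log2 fold change (old minus young, horizontal axis) of the brightest probe of each of the 39 tested members, grouped by role. Squares are the fit over 8 arrays with its 95% interval as a line, circles and triangles the differences within slide 1 and slide 2, and dotted lines mark 1.5-fold. Mgst1 lies at -1.25 and Gstt1 at 0.71, while 29 of the 39 squares are under 0.3 in size.

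The arrays lay on 2 slides of 4, slide 1 with young replicates 3 and 4 and old replicates 2 and 4 and slide 2 with the other 4, so that age could be compared within each slide. Of the 39 members, 12 were higher in old CMPs on both slides, 10 were lower on both, and 17 (43.6%) had opposite signs, against 50.3% of all genes. In 13 of the 17 the old arrays were higher on slide 1 and lower on slide 2. With slide as a block in the limma fit, 0 member probes were called and 39 over the whole array. The groups did not overlap, meaning that all 4 arrays of an age lay above all 4 of the other, for 2 member probes higher in old (3.51%, background 2.87%) and 5 lower in old (8.77%, background 1.57%). The 5 lower probes measured 3 genes, so they are not 5 separate observations. These probes measured Gstt1 and Gstm5 on the higher side and Mgst1, Gsr and Nnt on the lower side. Where the groups do not overlap the direction within each slide is fixed, so the same sign on both slides is no further check of these 7 probes.

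Glutathione transferases spanned log2 fold changes from -1.25 (Mgst1) to 0.71 (Gstt1), and none of the 10 was called. Mgst1, a membrane-bound transferase that also acts as a glutathione peroxidase, was measured by 2 neighbouring probes (chr6:138104846-138104905 and chr6:138104944-138105003, build mm9, plus strand). On the brighter probe its level was 1.11, 0.64, 0.89 and 0.80 in young and -0.21, -0.65, -1.20 and 0.48 in old. Every old array lay below every young array, and old replicate 5 was the nearest to the young. Means were 0.86 ± 0.19 in young and -0.39 ± 0.71 in old (SD, n = 4 each), a 2.38-fold lower level in old CMPs (log2 fold change -1.25 ± 0.33, SE, limma adjusted p = 0.252). The neighbouring probe gave 1.19, 0.73, 0.62 and 0.86 in young and -0.37, -0.90, -0.85 and 0.16 in old, which again did not overlap, and a 2.53-fold lower level in old (log2 fold change -1.34 ± 0.26, SE, limma adjusted p = 0.119). The differences on the 2 slides were -1.58 and -0.93 for the brighter probe and -1.57 and -1.11 for the other. With arrays weighted by their quality, limma called both probes (adjusted p = 0.0436 and 0.0194), and with normexp background correction it called the second (adjusted p = 0.0395), so whether Mgst1 passes the test depends on these choices. With the replicate number as a block the adjusted p was 0.728 and 0.722.

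Gstt1, a cytosolic theta class transferase, had the largest rise of the members after Txnip, with close replicates. Its brightest probe (chr10:75246560-75246619, mm9, minus strand) read 0.96, 1.15, 1.24 and 1.25 in young and 1.83, 1.69, 1.99 and 1.93 in old. All old arrays lay above all young arrays, by a mean of 1.64-fold (log2 fold change 0.71 ± 0.16, SE, limma adjusted p = 0.174), with 0.85 on slide 1 and 0.57 on slide 2. A dimmer probe assigned to the same gene (chr10:75259864-75259923, minus strand), some way upstream, read -0.76, -0.97, 0.06 and -0.30 in young and -0.21, -0.35, -0.54 and -0.89 in old. On that probe the ages overlapped and the log2 fold change was -0.01 ± 0.26 (SE, limma adjusted p = 0.999), with 0.49 on slide 1 and -0.50 on slide 2, so the difference was seen by 1 of the 2 probes. The files give no exon or UTR for either position, and no annotation of mm9 was used here.

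Gstm5, a mu class transferase, read 1.58, 1.26, 1.38 and 1.66 in young and 2.39, 1.80, 1.93 and 1.78 in old. The groups did not overlap, and the mean was 1.42-fold higher in old (log2 fold change 0.50 ± 0.20, SE, limma adjusted p = 0.66). The differences were 0.74 on slide 1 and 0.27 on slide 2. Gstm1, of the same class, had values of the opposite sign on both of its probes, with log2 fold changes of -0.47 and -0.39 and overlapping groups. The brighter Gstm1 probe is placed on chromosome 5 in the files and the dimmer on chromosome 3, where Gstm5 also lies, so the assignment of the brighter probe is uncertain. Mgst2, a microsomal relative of Mgst1, had a log2 fold change of -0.53 ± 0.27 (SE, limma adjusted p = 0.911) with overlapping groups. The other transferases Gsta4, Gstp1, Gstt2, Mgst3 and Gsto1 had log2 fold changes between 0.01 and 0.36, none called. Among the 59 member probes, a run of at least 20 bases shared with a probe of another gene name was found for 1, that of Sod1. This compared probes with probes only, and matches of a probe to transcripts of related genes were not tested.

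**Figure D2:**
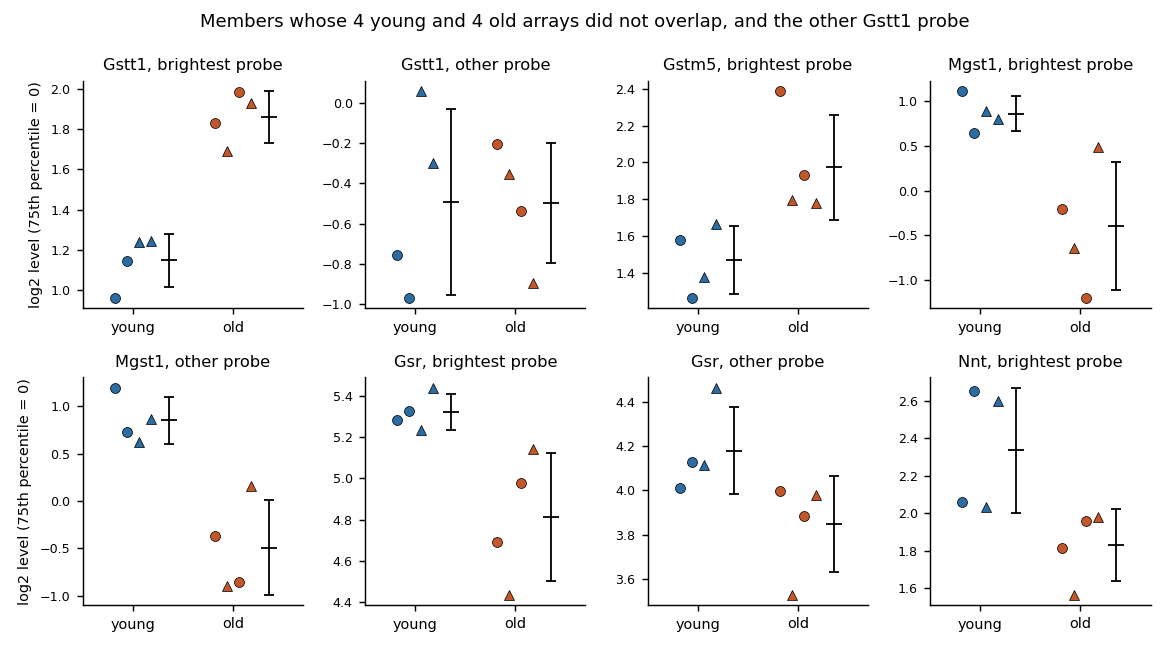
Log2 level (vertical axis, 0 is the array's 75th percentile, each panel with its own scale) on each young (blue) and old (orange) array, circles for slide 1 and triangles for slide 2, with mean and SD beside them. The 7 member probes whose ages did not overlap are shown with the dimmer Gstt1 probe, whose ages overlapped and whose means differed by -0.01.

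In glutathione synthesis and recycling, no gene was called, and the log2 fold changes of the 4 ran from -0.51 (Gsr) to 0.18 (Gclm). Gsr, glutathione reductase, read 5.28, 5.33, 5.24 and 5.44 in young and 4.69, 4.44, 4.98 and 5.14 in old on its brightest probe (chr8:34808488-34808547, mm9, plus strand). The old arrays all lay below the young ones and were the more spread. The mean was 1.42-fold lower in old (log2 fold change -0.51 ± 0.20, SE, limma adjusted p = 0.632), with -0.47 on slide 1 and -0.55 on slide 2. Its second probe, just upstream, read 4.01, 4.13, 4.12 and 4.46 in young and 4.00, 3.53, 3.89 and 3.98 in old, and again did not overlap, though the gap between the lowest young and the highest old array was small (log2 fold change -0.33 ± 0.19, SE, limma adjusted p = 0.945). Gclm, the modifier subunit of the enzyme that makes the first step of glutathione synthesis, was the highest of the group at a log2 fold change of 0.18 and read 2.36, 1.77, 2.18 and 2.41 in young and 2.18, 2.11, 2.42 and 2.74 in old. These values overlapped. Its catalytic partner Gclc had -0.12 and glutathione synthetase, Gss, -0.13, both with overlapping groups.

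Nnt, which in its intact form is the mitochondrial enzyme that makes NADPH for glutathione and thioredoxin reductase, was the lowest of the group it was listed with. Its brightest probe read 2.06, 2.65, 2.03 and 2.60 in young and 1.82, 1.57, 1.96 and 1.98 in old, which did not overlap, with young replicates 3 and 5 close to the old arrays. The mean was 1.42-fold lower in old (log2 fold change -0.50 ± 0.21, SE, limma adjusted p = 0.722), with -0.47 and -0.54 on the 2 slides. A dimmer Nnt probe, well above background on 4 of 8 arrays, overlapped between ages at -0.39 ± 0.63 (SE), with -1.36 on slide 1 and 0.58 on slide 2. The strain's known deletion within Nnt is shared by both ages. With this deletion the RNA level cannot be read as a level of working enzyme or of NADPH. Neither Nnt protein nor its activity was measured. The metallothioneins, small zinc-binding proteins that also scavenge radicals, differed mainly among arrays of 1 age. Mt1 read 5.85, 6.07, 5.20 and 5.66 in young and 6.27, 6.48, 5.37 and 5.22 in old, with a log2 fold change of 0.14 ± 0.32 (SE). Old replicates 2 and 3 were the highest, and the sign changed when either of them or young replicate 5 was left out. Mt2 read 3.27, 1.02, -0.10 and 0.13 in young and 1.38, 1.55, 0.58 and 0.50 in old. Young replicate 3 stood well above the other young arrays, the young SD was 1.54 against 0.54 in old, and the differences were -1.16 on slide 1 and 1.01 on slide 2.

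The first line of defence, the superoxide dismutases and catalase, showed no difference beyond the spread of the arrays. Cat, which breaks down hydrogen peroxide in peroxisomes, read 2.63, 2.02, 1.76 and 2.10 in young and 2.65, 2.39, 2.61 and 1.78 in old. The groups overlapped, with a log2 fold change of 0.23 ± 0.26 (SE, limma adjusted p = 0.998). Sod2, the mitochondrial dismutase, read 5.74, 5.80, 5.87 and 6.07 in young and 6.20, 5.81, 5.74 and 5.99 in old, at 0.07 ± 0.18 (SE). Sod1, its cytosolic counterpart, also had a log2 fold change of 0.07, with a 95% interval from -0.36 to 0.51. Sod1's probe shares 37 of its 60 bases in a run with a probe of another gene name, and whether that transcript adds to its signal was not tested.

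Glutathione peroxidases were likewise not called. Gpx7, a peroxidase of the endoplasmic reticulum, was the highest of the 4, with readings of -3.13, -2.54, -2.96 and -2.73 in young and -2.38, -2.74, -2.42 and -2.35 in old. The groups overlapped through old replicate 3, and the log2 fold change was 0.37 ± 0.19 (SE, limma adjusted p = 0.916), with 0.43 and 0.30 on the slides. Gpx3, the secreted form, was the lowest at -0.24 ± 0.31 (SE), with -3.15, -3.02, -2.40 and -2.999 in young and -3.20, -3.22, -3.79 and -2.33 in old. Its arrays overlapped, and old replicate 5 was the highest of all 8. Gpx1, the main cytosolic form, and Gpx4, which reduces lipid peroxides in membranes, had log2 fold changes of -0.05 (95% interval -0.44 to 0.34) and 0.15 (-0.25 to 0.56).

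The 6 peroxiredoxins spanned log2 fold changes from -0.11 to 0.26, and no member of the family was called. Prdx3, the mitochondrial form, read 2.77, 3.11, 3.11 and 3.33 in young and 3.74, 3.24, 3.21 and 3.17 in old (0.26 ± 0.20, SE, limma adjusted p = 0.998). Old replicate 2 stood above the other 7 arrays, which overlapped. Prdx4, of the secretory pathway, read 3.17, 3.35, 2.75 and 3.18 in young and 3.02, 2.88, 3.16 and 2.94 in old (-0.11 ± 0.18, SE). The probes of Prdx5, found in mitochondria and peroxisomes, differed in sign, at -0.06 and 0.02. The brighter read 5.56, 5.58, 6.27 and 6.40 in young and 6.27, 5.87, 5.66 and 5.78 in old and the dimmer 4.24, 4.32, 4.81 and 4.78 in young and 4.72, 4.54, 4.55 and 4.41 in old. On both probes young replicates 5 and 6 were above young replicates 3 and 4, and the difference between ages was 0.40 on slide 1 and -0.51 on slide 2 for the brighter probe. Prdx1, Prdx2 and Prdx6, the cytosolic members, had values of 0.11, 0.04 and 0.01 by brightest probe.

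Thioredoxins and their reductases were near 0, while their inhibitor varied widely. Txnip, the glucose-responsive protein that binds thioredoxin and restrains it, had the largest rise of all members, 1.80-fold in old. Yet it read 2.78, 1.90, 1.91 and -0.30 in young and 2.94, 2.40, 2.06 and 2.31 in old. Young replicate 6 lay far below every other array, the groups overlapped, and the log2 fold change of 0.85 ± 0.56 (SE, limma adjusted p = 0.994) became 0.23 without that array. The second Txnip probe had a log2 fold change of 0.28 and again its lowest value, -1.17, in young replicate 6. Txnrd1, the cytosolic thioredoxin reductase, was the lowest of the group at -0.02 ± 0.22 (SE), with 5.07, 4.94, 4.85 and 5.39 in young and 4.87, 4.67, 5.20 and 5.41 in old. The ages overlapped fully. Txn2, the mitochondrial thioredoxin, had probes of both signs, 0.02 for the brightest (5.10, 5.25, 5.44 and 5.52 in young and 5.85, 5.51, 5.03 and 4.996 in old) and -0.07 and -0.10 for the dimmer ones, all with overlapping groups. Txn1, the cytosolic thioredoxin, Txnrd2, the mitochondrial reductase, and Srxn1, which repairs oxidised peroxiredoxins, lay at 0.17, 0.03 and 0.11.

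The Nrf2 axis itself was not called in either direction. Nfe2l2 read 3.32, 2.87, 2.44 and 2.53 in young and 3.14, 3.00, 2.98 and 3.06 in old. The 4 old arrays were close together, within the range of the young ones, whose SD was 0.40 against 0.07 in old, and the log2 fold change was 0.26 ± 0.22 (SE, limma adjusted p = 0.998). Keap1, the adaptor that marks Nrf2 for destruction, read 3.14, 3.56, 3.69 and 3.36 in young and 3.21, 3.74, 3.00 and 2.95 in old (-0.21 ± 0.23, SE). Its ages overlapped, and old replicate 3 was the highest of the 8. Nqo1, a quinone reductase and classical target of Nrf2, had a log2 fold change of 0.18 ± 0.27 (SE). The 8 members with the antioxidant response core in their promoter spread from -1.25 (Mgst1) to 0.50 (Gstm5), with the other 6 between -0.08 and 0.26.

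**Figure D3:**
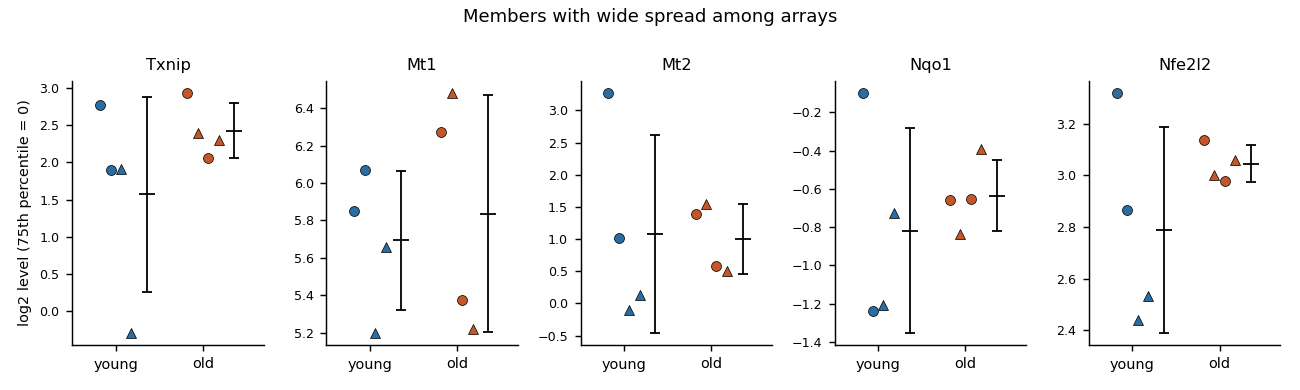
Log2 level (vertical axis, 0 is the array's 75th percentile, each panel with its own scale) of 5 members with wide spread among arrays of an age, marked as young (blue) or old (orange), with circles for slide 1, triangles for slide 2, and mean and SD. Young replicate 6 is the low Txnip value of -0.30 and young replicate 3 the high Mt2 value of 3.27.

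Genes of the same pathways outside the 40 were read from lists chosen with earlier results of these data known. Among 36 tested further genes of glutathione and thioredoxin metabolism, 26 had higher and 10 had lower values in old CMPs. The median of their log2 fold changes was 0.10. In this list 2 genes were called, both higher in old, against 48 of all 23145 genes tested. Gstm2, a further mu class transferase, read -0.79, -1.43, -0.73 and -0.72 in young and 0.58, 0.59, 0.53 and 0.48 in old on its brightest probe (chr3:107784622-107784681, mm9, minus strand). The groups lay far apart and the old arrays were nearly equal, a 2.76-fold rise (log2 fold change 1.46 ± 0.20, SE, limma adjusted p = 0.0278), with 1.66 and 1.26 on the slides. A second, overlapping probe read -0.91, -1.33, -1.24 and -0.78 in young and 0.14, 0.24, 0.29 and -0.02 in old and was also called (log2 fold change 1.23 ± 0.19, SE, limma adjusted p = 0.0457). The third and dimmest probe did not overlap either but was not called (2.26 ± 0.72, SE, limma adjusted p = 0.441). Gpx8, a peroxidase of the endoplasmic reticulum like Gpx7, read -2.73, -3.57, -3.33 and -2.58 in young and -1.25, -1.74, -1.16 and -0.99 in old, a 3.40-fold rise (log2 fold change 1.77 ± 0.27, SE, limma adjusted p = 0.0457) with no overlap. Both calls were lost when any of the 8 arrays was left out, with limma adjusted p from 0.0501 to 0.135. The direction stayed, as it must where groups do not overlap. Both were also lost with the replicate number as a block (adjusted p = 0.378 for Gstm2 and 0.287 for Gpx8), and that of Gpx8 with the slide as a block (adjusted p = 0.0818).

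In that list the groups did not overlap for 13.9% of genes, against 4.86% of all genes. Further members of that list did not overlap between ages without being called. Gstt3, a theta class relative of Gstt1, had a log2 fold change of 0.44, the mitochondrial and peroxisomal transferase Gstk1 0.43, and Oplah, which returns 5-oxoproline to glutamate, 0.41, each higher in old. Ggt1, which starts the breakdown of glutathione outside the cell, was the next highest of the list at 0.63, and Slc7a11, the cystine transporter, Gpx2 and Gstm3 were the lowest at -0.62, -0.48 and -0.31, all with overlapping groups. By brightest probe the theta class genes Gstt1, Gstt2 and Gstt3 lay at 0.71, 0.13 and 0.44.

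No gene that produces superoxide on purpose was called. The phagocyte NADPH oxidase passes electrons from NADPH to oxygen and is found chiefly in granulocytes and monocytes. Of 9 tested NADPH oxidase genes, 8 had values below 0, against 12123 of all 23145 genes, with a median log2 fold change of -0.28. The 9 also held genes of other NADPH oxidases, namely Duox2 and, at -0.38 and -0.27, Nox1 and Nox4. Cybb, the catalytic subunit of the phagocyte enzyme, read -1.73, -2.49, -1.80 and -2.65 in young and -3.38, -3.91, -4.78 and -4.13 in old. Every old array lay below every young array, by 3.68-fold (log2 fold change -1.88 ± 0.33, SE, limma adjusted p = 0.075), although the probe was well above background on 3 of the 4 old arrays. Ncf4 and Ncf1, cytosolic subunits, had -0.65 and -0.54, and Cyba, Duox2 and Rac2 had -0.17, -0.07 and 0.01.

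**Figure D4:**
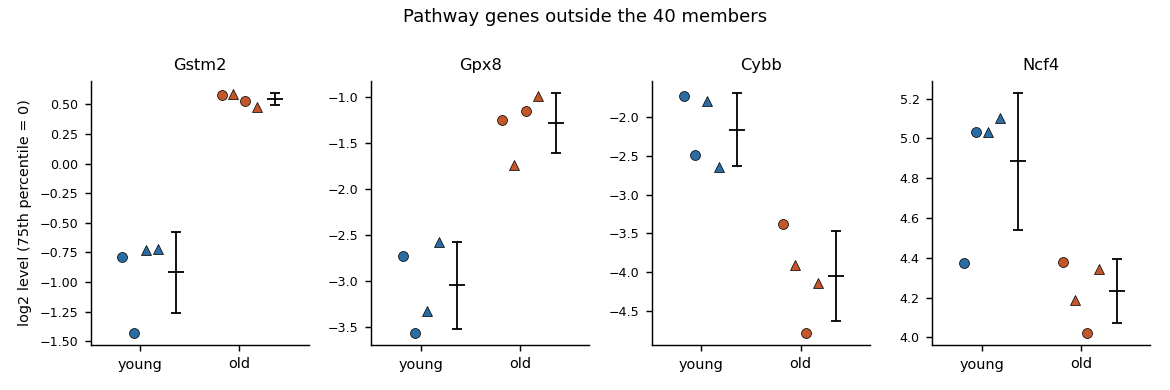
Log2 level (vertical axis, 0 is the array's 75th percentile, each panel with its own scale) of Gstm2, Gpx8, Cybb and Ncf4 on each young (blue) and old (orange) array, circles for slide 1 and triangles for slide 2, with mean and SD. The ages do not overlap for Gstm2, Gpx8 and Cybb, at 1.46, 1.77 and -1.88, and meet for Ncf4.

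The other pathway lists stayed close to 0. Genes that supply NADPH gave 6 higher and 6 lower of 12, with a median of 0.02. Aldh1l1, of folate metabolism, was the highest at 0.77 with no overlap, followed by malic enzyme Me1 at 0.40 and Mthfd1 at 0.18, and G6pdx, Pgd and Idh2 were the lowest at -0.10, -0.17 and -0.26. Of 24 tested regulators and further targets of Nrf2, 10 were higher and 14 lower, with a median of -0.04. Nfe2, the blood cell relative of Nrf2 that drives platelet formation, was the highest at 0.44, before Sesn2 at 0.35 and Mafk at 0.25, and Bach2, a repressor that binds the same element, was the lowest at -0.63, after Osgin1 at -0.58 and the ferritin chain Fth1 at -0.26. Nfe2 and Bach2 did not overlap between ages (8.33% of the list, against 4.86% of all genes), and none of the list was called. FoxO and redox signalling genes had 4 higher and 7 lower of 11, none called, with Map3k5 at 0.35, Foxo1 at 0.30 and Mapk14 at 0.02 as the highest and Atm, Sirt3 and Prdm16 at -0.48, -0.28 and -0.26 as the lowest.

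Several marker genes of the sorted cells and of other lineages differed between ages beside these values. Of all 23145 genes tested, 48 were called and 4.86% did not overlap between ages. Kit, Cd34, Fcgr3 and Mpo, which the CMP gate or its cells carry, were well above background on all 8 arrays. Mpo was lower in old by 0.59 on the log2 scale with no overlap (11.1% of the CMP list). The 2 CMP markers higher in old were Gata2 at 0.72, the largest change of that list, and Kit at 0.31. Both had overlapping groups. All 13 tested megakaryocyte markers had higher values in old, with a median log2 fold change of 1.16 and 1 called. The groups did not overlap for 11 of them (84.6%, against 4.86% of all genes). The median deviation of the list from its 8-array mean ran from -1.11 to -0.33 in young and from 0.44 to 0.65 in old. Of 12 tested granulocyte and monocyte markers, 10 were lower in old, with a median of -0.36 and none called. The groups did not overlap for 3 of them, each lower in old (25%, against 4.86% of all genes). Elane and Prtn3, neutrophil granule proteases, had -1.02 and -1.01, Irf8, a monocyte factor, -0.71, and Csf1r, the M-CSF receptor, -0.57. Prtn3, Irf8 and Csf1r did not overlap between ages. Elane did, with 5.42, 5.12, 3.35 and 3.91 in old against 5.17 to 5.87 in young. The granule proteins Ltf and Ngp were not tested, and the lymphoid factors Ebf1, Pax5 and Rag1 were well above background on 0 arrays. The median deviation of the granulocyte and monocyte list ran from 0.11 to 0.37 in young and from -0.53 to 0.42 in old, old replicate 2 being the highest of all. Of 9 mast cell and eosinophil markers 5 had higher and 4 lower values, and 1 was called, the IgE receptor chain Fcer1a, at 5.65-fold higher in old (limma adjusted p = 0.0293). In that list 2 did not overlap on the higher side and 1, Epx at -0.83, on the lower side (33.3%, against 4.86% of all genes). Of 9 stem cell markers 6 had higher and 3 lower values, and 1 was called, Hoxb5, at 3.60-fold higher in old (limma adjusted p = 0.00707). The Hoxb5 probe was dim in young, with a mean of -4.44, and well above background on 3 young arrays. In the stem cell list 2 did not overlap on the higher side and 1, Ly6a at -0.73, on the lower side (33.3%). Of 11 erythroid markers 6 had higher and 5 lower values and none was called. Aqp1, Gata1 and Car2 did not overlap, at 1.14, 0.73 and 0.63 (27.3% of the list, against 4.86% of all genes). The 5 lower ones were Hba-a1, Slc4a1, Car1, Ermap and Hbb-b1, at -0.95, -0.42, -0.24, -0.14 and -0.01, with overlapping groups. Young replicate 3 stood well above the other young arrays for Hba-a1, Hbb-b1 and Car1. Hba-a1 read 2.21, -1.11, -2.46 and -2.38 in young, and its differences were -2.61 on slide 1 and 0.71 on slide 2. Those 3 lower values thus leaned on 1 young array. Of 9 CMP markers and 9 lymphoid markers, 7 each had lower values, and none was called. The median deviation of the stem cell list ran from -0.48 to -0.01 in young and from -0.04 to 0.38 in old, that of the erythroid list from -0.35 to 0.14 and from -0.24 to 0.70, and that of the mast cell list from -0.25 to 0.28 and from 0.10 to 0.22. Over the antioxidant genes it ran from -0.10 to 0.10 in young and from -0.05 to 0.16 in old. In bulk RNA a change in the share of cells of a kind and a change in RNA per cell cannot be told apart, and the part of these lineage markers in the values of Mgst1, Gsr, Gstm2, Cybb and the others was not tested.

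**Figure D5:**
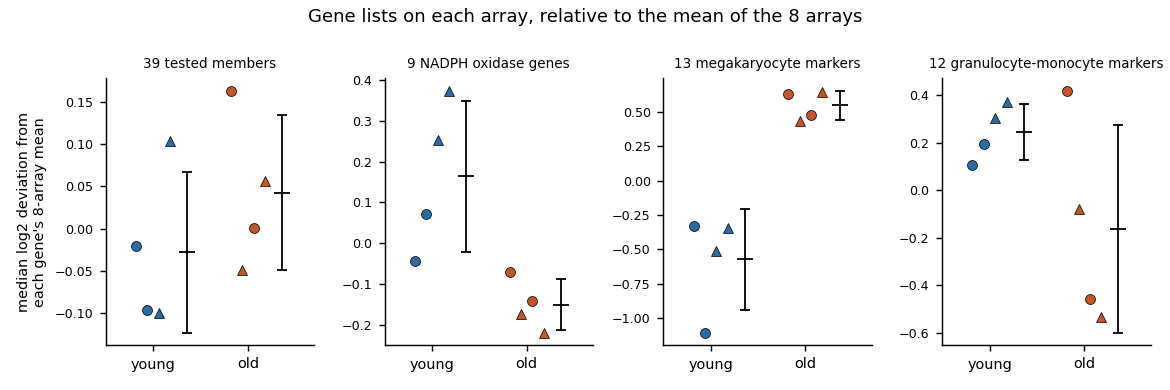
Median over each gene list of the log2 deviation from the gene's mean over 8 arrays (vertical axis, each panel with its own scale) on each young (blue) and old (orange) array, circles for slide 1 and triangles for slide 2, with mean and SD. The 39 antioxidant genes overlap between ages, from -0.10 to 0.10 and from -0.05 to 0.16, while the megakaryocyte markers separate.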

How the data were processed

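RNA of CMPs from 4 young and 4 old samples was hybridised by the authors to 1-colour Agilent arrays, and grouping followed the sample labels. The deposited scanner files, read by the authors with Feature Extraction 10.7.3.1, give the background-corrected intensity of each spot and marks for spots well above background, which are 0 or 1. A further table of the whole series, deposited by the authors, holds log2 values that its header describes as a percentile shift with the median of all samples as baseline, and it served as an alternative. Here each intensity was set on a log2 scale with the 75th percentile of its array as 0, marked outlier spots were left out (141 to 230 per array), and spots of a probe were averaged. Between 55.6% and 63.2% of probes per array were well above background. The number of arrays limits the precision. Probes well above background on at least 4 of 8 arrays were fitted with limma 3.58.1 (lmFit, eBayes) in R 4.3.3, and p-values were adjusted over all of them by Benjamini-Hochberg. With 4 against 4 arrays, no overlap corresponds to the smallest two-sided p an exact permutation test can give, 0.0286.

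The members, gene lists and tests were chosen with earlier results of these data known. Values on every array were given for members called, not overlapping, highest or lowest in their role, or with probes of both signs. Pathway genes were named if called, or among the 3 highest or lowest of their list, and other genes named were chosen after their values were seen. Coordinates of probes are those of the files (mm9). Replicate numbers 3, 4 and 5 occur in both ages, but same-numbered arrays did not deviate together (correlations -0.0928, -0.141 and 0.148), so no pairing was used. Of the 28 pairs of arrays, 0 were identical.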

Additional observations from a re-analysis of the deposited data

Results flagged for a closer look

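Among 84 groups of 4 arrays, 1 array stood apart from the other 3 by Dixon's criterion in 4 groups, where chance flags about 1 in 20 groups. Old replicate 2 read 3.74 for Prdx3, with the next array at 3.24. Old replicate 3 read -2.74 for Gpx7, with the next at -2.42, and without it the young and old arrays of Gpx7 would not overlap. Old replicate 4 read 3.21 for Txnrd2, with the next at 3.36. Young replicate 4 read -1.43 for Gstm2, with the next at -0.79, and without it the log2 fold change of Gstm2 was 1.29 (limma adjusted p = 0.0501). All values are log2 levels relative to the array's 75th percentile.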

How the results depend on the processing

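The fit was repeated under 20 other settings, 8 of them leaving out an array. The count of 0 called member probes became 1 with normexp background correction and 2 with array weights, all of Mgst1. Member probes with an unadjusted p under 0.05 and higher in old numbered 1 when the probes of a gene were averaged and 1 with the replicate block, and 1 to 5 when an array was left out (5 without young replicate 3, 1 without young replicate 5 or old replicate 2). Those lower in old numbered 7 with quantile normalization, 2 with a shift to the median, 1 in the series table, 2 with averaged probes, 2 with the replicate block, and 2 to 6 when an array was left out (2 without young replicate 4, young replicate 6 or old replicate 3). Non-overlapping probes higher in old numbered 1 with averaged probes and 2 to 5 without an array (5 without young replicate 3, 4 without old replicate 3), and those lower in old 3 with normexp, 2 with a shift to the median, 1 in the series table and 2 with averaged probes. The median over members, 0.07, was 0.19 with a shift to the median, where the median of all probes was 0.10, and turned to -0.0016 with quantile normalization and -0.0144 with array weights. It ran from 0.0045 (without old replicate 2) to 0.129 (without young replicate 6) when an array was left out, and was also moved over 1.5 times without young replicate 3 (0.0281), young replicate 4 (0.0426) or old replicate 3 (0.108). A Welch t-test with Benjamini-Hochberg adjustment called 0 probes on the whole array and 0 of the members. The study's statistics name Welch's test for unpaired samples, but its methods do not name the test used for the arrays, so this is not the authors' array result.

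Signs turned for genes near 0. With array weights Sod2 had -0.0334, Gclm -0.0144 and Keap1 0.0654. With normexp Gpx3 had 0.0472, Txnrd1 0.0223, Prdx5 0.0105 and Txn2 -0.0447. With a shift to the median Prdx4 had 0.0051, Txnrd1 0.0962 and Prdx5 0.0603. Txnrd1 had 0.0088 in the series table. With the replicate block Mt1 had -0.0162, Txnrd1 0.144 and Txn2 -0.0824. Txn2 had -0.0325 with quantile normalization and -0.0526 with averaged probes. Without an array Sod2 ran from -0.0217 to 0.133, Mt1 from -0.0737 to 0.347, Txnrd1 from -0.15 to 0.102, Prdx5 from -0.189 to 0.093 and Txn2 from -0.15 to 0.14. Mgst1, Gstt1, Gstm5, Gsr, Nnt, Gstm2 and Gpx8 kept their direction in all 20 settings, but most of these settings could not have turned it. Their groups do not overlap, so leaving out an array cannot change the sign. Settings that alter only the test, the filter or the slide block leave the fold change as it was. Besides the array left out and the blocks, the calls of Gstm2 and Gpx8 were lost with no filter on dim probes (limma adjusted p = 0.0978 and 0.135) and with the Welch t-test. The cause of these moves was not tested.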
